A study of Homo sapiens with 4 samples.

Results

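Transcripts of 9 genes of the RAS switch were followed in MCF10AT cells, an established human breast epithelial line derived from MCF10A and transformed by an introduced oncogenic form of HRAS. The genes were chosen by name from the deposited count table, of which they are 9 of 58233 rows: the RAS GTPases HRAS, NRAS, RRAS, RRAS2 and MRAS, the exchange factors SOS1 and SOS2, and the GTPase-activating proteins NF1 and RASA1. All 9 were among the 13179 genes with enough counts to be tested. The 4 libraries are 2 replicates with the genotype Bromo+/- and 2 replicates of a non-target control. The labels do not say which gene or allele Bromo+/- names, and the series title and design speak of EP300 knockdown by shRNA, in triplicate. Both groups therefore share the line, the introduced HRAS, and a medium with horse serum, insulin, hydrocortisone, cholera toxin, penicillin, streptomycin and epidermal growth factor at 20 ng/ml, a ligand upstream of RAS. The treatment protocol in the labels describes lentiviral shRNA and puromycin selection, without saying which libraries it applies to. Nothing in the labels says that the libraries of a group came from separate cultures or clones, so each p-value reflects no more than the spread of these 4 libraries, and that spread may be technical.

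RAS proteins are small GTPases of the inner cell membrane that are active with GTP bound and inactive with GDP bound. Exchange factors such as SOS load them with GTP when growth factor receptors are engaged, and GTPase-activating proteins such as neurofibromin (NF1) and p120 RasGAP (RASA1) return them to the GDP state. Oncogenic forms resist this second step and keep signalling to the RAF, PI3-kinase and RAL effectors, which is how the introduced HRAS transforms mammary cells.

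The 5 GTPases share a conserved nucleotide-binding domain and differ most at their end, where a short box of residues that starts with cysteine receives a lipid anchor. The last 60 coding bases of each gene are shown because this stretch sets the family members apart and because it shows how far apart their reads are. They are reference sequence, read 5′ to 3′ on the coding strand from GENCODE release 29 on GRCh38, and the capitals mark the final 4 codons before the stop, which encode the lipid-receiving box.
HRAS (chr11:532639-532698, minus strand): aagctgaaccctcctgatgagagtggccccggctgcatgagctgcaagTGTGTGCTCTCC
NRAS (chr1:114708538-114708597, minus strand): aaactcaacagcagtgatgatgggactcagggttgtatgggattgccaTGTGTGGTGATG
RRAS (chr19:49635579-49635638, minus strand): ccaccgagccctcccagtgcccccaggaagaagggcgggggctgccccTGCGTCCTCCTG
RRAS2 (chr11:14279340-14279399, minus strand): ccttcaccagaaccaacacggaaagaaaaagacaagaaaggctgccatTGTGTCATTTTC
MRAS (chr3:138402207-138402266, plus strand): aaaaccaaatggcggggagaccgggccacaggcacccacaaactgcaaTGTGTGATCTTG
Each box opens with a cysteine codon, TGT in 4 of the genes and TGC in RRAS. Over whole coding sequences HRAS was 73% identical to NRAS, 59.2% to MRAS, 57% to RRAS and 56.5% to RRAS2. Over the last 60 bases it was 51.7% identical to NRAS, 54.1% to MRAS, 50% to RRAS and 45.3% to RRAS2. The drop was not large for every pair: NRAS and MRAS were 57.1% identical over whole coding sequences and 55.7% over the last 60 bases. The longest run of identical coding bases between any 2 of the 5 was 23, between RRAS and RRAS2. No 50-base stretch of any of the 9 genes' transcripts occurred in the transcripts of another of the 9, so reads of that length do not match the spliced transcripts of 2 members. Matches to transcripts of other genes were counted on either strand, as read or as the reverse complement. Of the 50-base stretches of RRAS2, 14.7% had such a match, against 2.27% for NF1, 0.0308% for MRAS and none for HRAS, NRAS, RRAS, SOS1 and SOS2. For RRAS2, 267 stretches matched as read and 251 as the reverse complement. For RASA1 the share was 11.6%, and all of it came from CCNH, whose exons overlap RASA1 on the opposite strand over 438 bases.

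Libraries held 10835237 to 11975396 counts, and mitochondrially encoded genes took 4.21% to 4.32% of control counts and 5.05% to 5.18% of those of the libraries labelled Bromo+/-. EP300, the gene the series title names, was not lower: it stood at 106 and 111 CPM in the controls (CPM, read counts scaled to a common library total) and at 121 and 126 CPM in the libraries labelled Bromo+/- (adjusted p = 0.00701, edgeR quasi-likelihood test over all genes), and gene-level counts cannot show whether an allele is altered. Epithelial identity differed sharply. All 8 epithelial markers were lower in the libraries labelled Bromo+/-, their summed level was 1682 to 1751 CPM against 8595 to 8834 CPM, and E-cadherin (CDH1) stood at 2.61 and 2.48 CPM against 405 and 416 CPM. Of 7 fibroblast markers the 2 with enough counts were higher, DCN and COL1A1 (summed level of the list 86.2 to 88.7 CPM against 3.63 to 4.39 CPM), while COL3A1 and LUM had no count in any library. Summed leukocyte and endothelial markers stayed under 7 CPM in every library, with CD3E and VWF at 0. The part of these differences in the results below was not tested, and in bulk RNA fewer cells that express a gene and less RNA per cell cannot be told apart.

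Of the 9 genes, 2 were higher in the libraries labelled Bromo+/- (HRAS and MRAS), 3 were lower (RASA1, RRAS2 and RRAS), and 4 did not pass an adjusted p of 0.05 (NRAS, SOS1, SOS2 and NF1). The share that passed, 5 of 9, has to be read against all tested genes, of which 53.5% passed, 26.4% higher and 27.1% lower. The members' share, 55.6%, was close to this background in the edgeR test. The background depended on the test: with the DESeq2 Wald test 4884 of the 13179 genes passed, and the same 5 members did. The median log2 fold change (libraries labelled Bromo+/- over control) was -0.072 over the 9 genes and 0.0062 over all tested genes. With totals as the sole scaling factor, 4433 genes were higher and 2794 lower, in place of 3485 and 3570, and the same 2 members were higher and 3 lower.

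**Figure D1:**
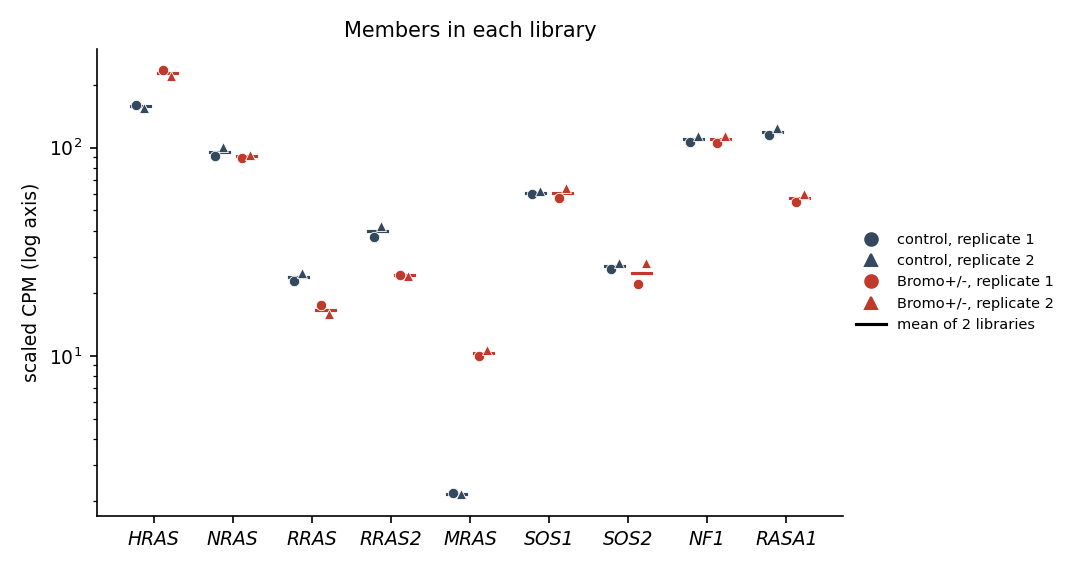
Scaled CPM (log axis) of the 9 genes in each library, controls in dark blue and libraries labelled Bromo+/- in red, with circles for replicate 1, triangles for replicate 2 and a line at the mean of 2 libraries. The groups separate for HRAS and MRAS (higher) and for RRAS, RRAS2 and RASA1 (lower) and overlap for NRAS, SOS1, SOS2 and NF1. Separation was common, found for 75.2% of all tested genes. CPM is not corrected for gene length, so heights should be compared only within a gene.

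HRAS, the GTPase whose oncogenic form transformed this line, was higher in the libraries labelled Bromo+/-. Its level was 235 and 220.1 CPM there and 160.5 and 155 CPM in the controls. Both values of the first group lay above both control values, and the gap between the groups was wider than the gap within either. The rise was 1.44-fold (log2 fold change 0.53, SE 0.056, n = 2 per group, adjusted p = 1.94e-17, edgeR quasi-likelihood test over all genes), with a 95% interval of 1.34-fold to 1.56-fold. HRAS lies on chromosome 11 (GRCh38, 532242 to 537287, minus strand), and its 1854 exon bases overlap those of no other gene in the table. Reads from the introduced copy and from the cell's own gene are counted together where they carry the same exons, so the table does not say which of them was higher. A difference of this size was common: 29.3% of tested genes had a larger log2 fold change in either direction.

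MRAS, a GTPase that joins SHOC2 and protein phosphatase 1 in the complex that removes an inhibitory phosphate from RAF, had the largest difference of the 9. It had 23 and 25 counts in the controls and 122 and 121 in the libraries labelled Bromo+/-. On the scaled level this was 9.94 and 10.7 CPM against 2.2 and 2.16 CPM, with the replicates of each group close together. The rise was 4.72-fold, with an interval of 3.4-fold to 6.54-fold that is wide because the controls gave few counts (log2 fold change 2.24, SE 0.24, adjusted p = 5.58e-21, edgeR). It was a rise from a low level, and 5.57% of tested genes differed by more. MRAS lies on chromosome 3 (138347648 to 138405534, plus strand).

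The R-RAS pair went the other way. RRAS, the founding R-RAS gene and known for roles in integrin activation and cell adhesion, stood at 23 and 25.1 CPM in the controls and at 17.5 and 15.9 CPM in the other group. RRAS2, which encodes TC21, a close relative that can itself transform cells, stood at 24.5 and 24.3 CPM against 37.2 and 42 CPM. For both genes the groups did not overlap, which was so for 75.2% of all tested genes. RRAS fell by 0.53 on the log2 scale (SE 0.11, adjusted p = 1.22e-05, edgeR), to 0.694 of the control level. RRAS2 fell by 0.70 (SE 0.093, adjusted p = 4.29e-12, edgeR), to 0.615 of the control level. RRAS lies on chromosome 19 (49635292 to 49640201) and RRAS2 on chromosome 11 (14277926 to 14364506), both on the minus strand. How reads shared between RRAS2 and the other genes with matching stretches were counted is not given in the sources used here.

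NRAS, the closest relative of HRAS in the set, gave no detectable difference. It stood at 90.8 and 100.4 CPM in the controls and at 89.5 and 92.7 CPM in the other group, so that the ranges overlapped. Its log2 fold change was -0.072 (SE 0.066, adjusted p = 0.367, edgeR), and the 95% interval of 0.869 to 1.04 times the control level does not include the 1.44-fold seen for HRAS. NRAS lies on chromosome 1 (114704469 to 114716894, minus strand).

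The exchange factors that link receptors to RAS also gave no detectable difference. SOS1, on chromosome 2 (38981396 to 39124345, minus strand), stood at 60 and 61.7 CPM in the controls, inside the range of 57.5 to 63.7 CPM of the other group. Its log2 fold change was -0.0079 (SE 0.074, adjusted p = 0.938, edgeR), with an interval of 0.898 to 1.1 times control. SOS2, on chromosome 14 (50117120 to 50231558, minus strand), stood at 22.1 and 27.8 CPM against 26.2 and 27.8 CPM. The lower first replicate of the libraries labelled Bromo+/- moved its log2 fold change to -0.12 (adjusted p = 0.315 in edgeR, SE 0.10, interval 0.802 to 1.05 times control). Without replicate 2 of that group SOS2 passed the threshold (log2 fold change -0.29, adjusted p = 0.0296, edgeR), and without replicate 1 the value was 0.039 (adjusted p = 0.801), so the SOS2 estimate rests on which of these libraries is used.

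The 2 GTPase-activating proteins differed from each other. RASA1, which encodes p120 RasGAP, a protein that binds activated receptors through SH2 domains and switches RAS off at the membrane, stood at 115 and 124 CPM in the controls and at 54.9 and 60 CPM in the other group. The groups were far apart against their spread. RASA1 was 0.479 times the control level (95% interval 0.435 to 0.526; log2 fold change -1.06, SE 0.069, adjusted p = 4.23e-37, edgeR), and 14% of tested genes differed by more. NF1, which encodes neurofibromin, the tumour suppressor lost in neurofibromatosis, stood at 105 and 114 CPM against 107 and 114 CPM. These pairs overlapped almost entirely (log2 fold change -0.012, SE 0.064, adjusted p = 0.891, edgeR), and the interval of 0.909 to 1.08 times control does not include a change of the size seen for RASA1.

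RASA1 lies on chromosome 5 (87267888 to 87391931, plus strand) and NF1 on chromosome 17 (31094927 to 31382116, plus strand). The exons of RASA1 that overlap CCNH, a cyclin gene on the opposite strand, make up 8.37% of its 5232 exon bases. CCNH itself had 612 and 668 counts in the controls and 611 and 566 in the other group, a much smaller difference than that of RASA1 (673 and 677 against 1209 and 1435 counts). A second gene on the opposite strand, without a symbol, overlaps 6.36% of the RASA1 exon bases and had at most 4 counts per library. How reads in shared exons were assigned is not given in the sources used here, and their part in the RASA1 difference was not tested. For NF1 the overlaps with other genes each covered less than 1% of its exon bases.

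**Figure D2:**
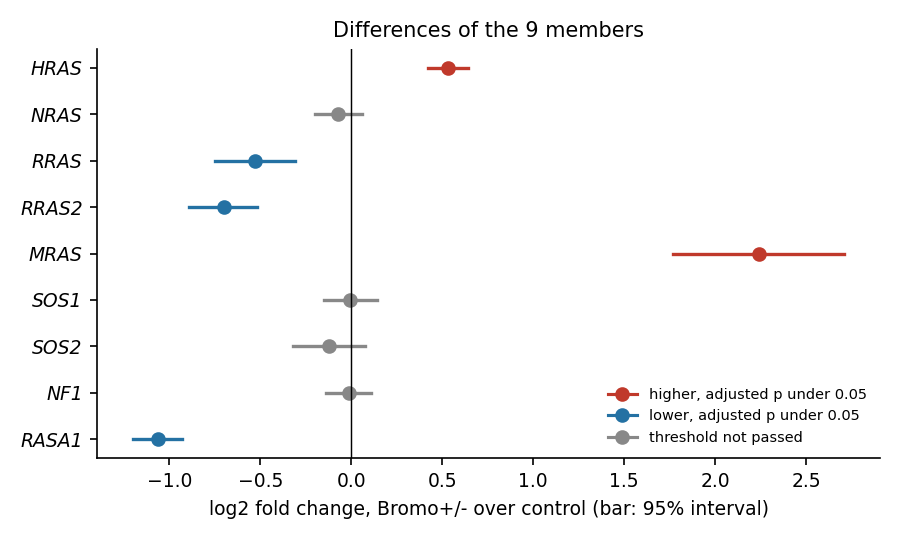
Log2 fold change of the libraries labelled Bromo+/- over control for the 9 genes (points) with the 95% interval from the fitted model (bars), coloured by whether the gene passed an adjusted p of 0.05. HRAS (0.53) and MRAS (2.24) lie above 0, RRAS (-0.53), RRAS2 (-0.70) and RASA1 (-1.06) lie below it, and the intervals of NRAS, SOS1, SOS2 and NF1 include it.

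Levels of different genes were compared as RPKM, the scaled CPM per kilobase of the exon bases listed for the gene. HRAS was the highest of the 9 in every library, at 83.6 and 86.5 RPKM in the controls and 119 and 127 RPKM in the libraries labelled Bromo+/-. In the controls RASA1 came next (22.1 to 23.7 RPKM), followed by NRAS (20.4 to 22.6) and RRAS (19.8 to 21.6). The ranges of RASA1 and NRAS overlapped, as did those of NRAS and RRAS, so the order of these neighbours is not resolved. RRAS2 (10.8 to 12.2 RPKM) and SOS1 (6.48 to 6.67) followed without overlap. NF1 (3.94 to 4.2 RPKM) and SOS2 (3.77 to 4.01) overlapped, and MRAS was lowest (0.34 to 0.345).

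In the libraries labelled Bromo+/- RASA1 took the fourth place. NRAS (20.1 to 20.8 RPKM) came after HRAS, then RRAS (13.7 to 15.1) and RASA1 (10.5 to 11.5), without overlap between these neighbours. RRAS2 (7.03 to 7.11 RPKM) and SOS1 (6.21 to 6.88) were close and did not overlap, NF1 (3.87 to 4.21) and SOS2 (3.18 to 4.01) overlapped, and MRAS stayed lowest (1.56 to 1.68). RPKM divides by all exon bases of a gene over all its isoforms, 27130 for NF1 and 6365 for MRAS, so a gene expressed from a shorter isoform is understated, and the order rests on these lengths.

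**Figure D3:**
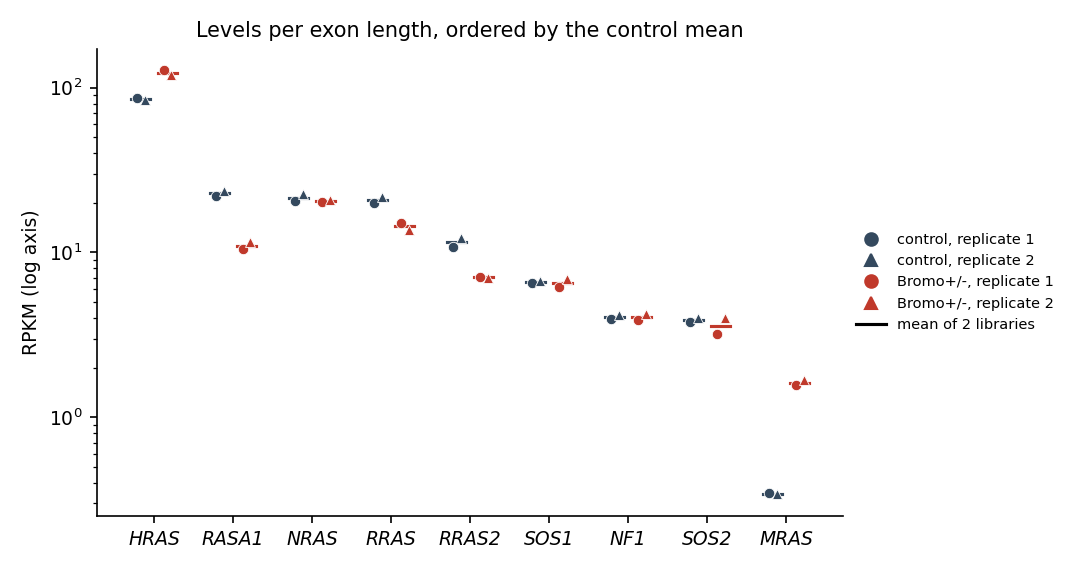
RPKM (log axis) of the 9 genes in each library, ordered by the control mean, controls in dark blue and libraries labelled Bromo+/- in red, with circles and triangles for replicates 1 and 2 and a line at the mean. HRAS lies above all others in every library, RASA1 drops from 22.1 to 23.7 RPKM in the controls to 10.5 to 11.5 RPKM, and MRAS is lowest in both groups.

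HRAS made up most of the GTPase transcripts per length. Of the summed RPKM of the 5 GTPases it took 62.7% and 59.6% in the control libraries and 74.3% and 73.3% in the libraries labelled Bromo+/-. NRAS took 14.8% and 16.1% in the controls and 11.8% and 12.9% in the other group. The joint share of RRAS and RRAS2 was also smaller: RRAS went from 14.4% and 15.4% to 8.85% and 8.44%, and RRAS2 from 7.82% and 8.67% to 4.16% and 4.34%. MRAS stayed at or below 1.04%, so its large fold difference added little to the sum. The sum itself was 138 and 140.3 RPKM in the controls and 171 and 162 RPKM in the libraries labelled Bromo+/-. The sum holds only these 5 genes. The shares do not depend on how libraries are scaled. They are given as a description, with no test.

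**Figure D4:**
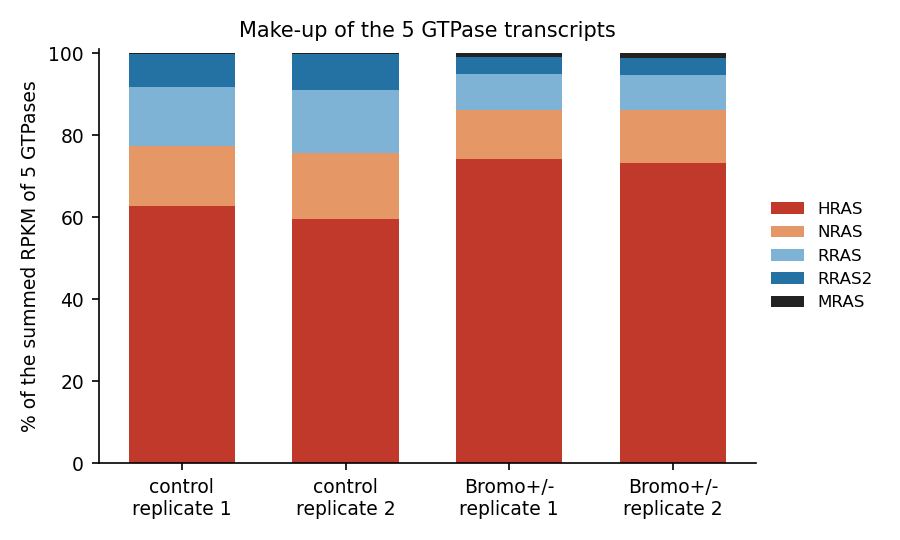
Stacked bars of the percent of the summed RPKM of HRAS, NRAS, RRAS, RRAS2 and MRAS that each gene took, in each of the 4 libraries. The HRAS part is 59.6% to 62.7% in the controls and 73.3% to 74.3% in the libraries labelled Bromo+/-, and the RRAS and RRAS2 parts are smaller in the latter.

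Ratios of level within a library put these differences side by side. HRAS stood at 3.92 and 3.53 times RASA1 in the controls and at 12.1 and 10.4 times RASA1 in the libraries labelled Bromo+/-. NF1 stood at 0.178 and 0.177 times RASA1 in the controls and at 0.369 and 0.367 times in the other group, and the replicates were nearly equal. SOS1 stood at 1.72 and 1.66 times SOS2 in the controls and at 1.95 and 1.72 times in the libraries labelled Bromo+/-. These are transcript ratios, and neither the GTP-bound fraction of RAS nor any protein was measured.

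Other genes of the RAS cycle were read from 8 lists with 99 genes, of which 73 had enough counts to be tested. Of these 15 were higher and 29 lower in the libraries labelled Bromo+/- (60.3% past the threshold, against 53.5% of all tested genes), with a median log2 fold change of -0.065. The split depended on the scaling, as it did over all tested genes. With upper quartile scaling 18 of the listed genes were higher and 23 lower, against 4133 and 2985 of all tested genes. With library size alone 19 were higher and 21 lower, against 4433 and 2794. Under the scaling used elsewhere here, all tested genes split into 3485 higher and 3570 lower. All adjusted p-values below are from edgeR's quasi-likelihood test over all genes.

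Among other RAS exchange factors, the RASGRP and RASGRF families of lymphoid and neural cells, 1 of 6 had enough counts, RASGRF1, and it did not pass (1.27 ± 0.166 CPM, SD, n = 2, against 0.923 ± 0.45 CPM, adjusted p = 0.334). RASGRP2 and RASGRP4 had no count in any library, and RASGRP1, RASGRP3 and RASGRF2 had at most 12 counts per library. All 6 stood below SOS1 and SOS2 in CPM in every library.

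Of 8 other GTPase-activating proteins for RAS-family GTPases, 6 were tested, 3 were lower, 2 were higher and DAB2IP did not pass (log2 fold change -0.065). The share past the threshold was 83.3%, against 53.5% of all tested genes. RASAL1 had the largest fall, to 0.978 and 1.06 CPM from 14.9 and 16.1 CPM (log2 fold change -3.91, SE 0.32, adjusted p = 1.38e-43). RASAL2 fell to 41.8 and 46.1 CPM from 74.5 and 82 CPM (-0.84, SE 0.076), and RASA2 fell by 0.44 on the log2 scale. RASA3, which also acts on RAP, rose to 47.9 and 45.9 CPM from 35.1 and 33.4 CPM (0.46, SE 0.084). RASAL3 and RASA4 had no count in any library. RASA4 has near-identical copies in the genome, to which its reads may also match, so its 0 is uncertain.

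The SPRED proteins bring NF1 to the membrane. All 3 SPRED genes rose, against 26.4% of all tested genes. SPRED1 rose to 50.3 and 54.7 CPM from 31.3 and 35.6 CPM (log2 fold change 0.64, SE 0.083, adjusted p = 1.43e-12). SPRED3 rose to 3.83 and 3.72 CPM from 0.669 and 0.865 CPM (2.28, SE 0.39), and SPRED2 by 0.20 (SE 0.077, adjusted p = 0.0232). The SPRED2 call was lost when no low-count filter was set, with the DESeq2 Wald test and without any of 3 libraries (replicate 2 of the libraries labelled Bromo+/- and either control), where its adjusted p reached 0.266.

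Of 14 adaptors between receptors and RAS, 13 were tested, 2 rose and 6 fell (61.5% past the threshold, against 53.5% of all tested genes). SHC1, the main SHC adaptor of epithelial receptors, rose to 559 and 526 CPM from 237 and 244 CPM (log2 fold change 1.18, SE 0.052, adjusted p = 1.23e-60), and 7.72% of its exon bases overlap PYGO2. SHC3 rose from a low level, 0.573 and 0.432 CPM, to 3.1 and 3.45 CPM (2.68, SE 0.47). SHC4 fell to 1.3 and 1.33 CPM from 8.21 and 8.04 CPM (-2.62, SE 0.29), and GAB1, a docking protein of EGF receptor and MET, fell to 5.46 and 6.47 CPM from 12.2 and 15.6 CPM (-1.23, SE 0.16). GRB2, the partner that carries SOS to receptors and named here after its values were seen, did not pass, at 142 and 146 CPM against 149.7 and 149 CPM (adjusted p = 0.446). The count of 8 adaptors past the threshold was 5 with the DESeq2 Wald test. Over all 13179 tested genes the count also fell with that test, from 7055 to 4884.

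Of 13 genes that attach, trim or cycle the lipid anchors of RAS and deliver the protein, none rose and 5 fell. The share past the threshold was 38.5%, lower than the 53.5% of all tested genes. ABHD17C, a depalmitoylating enzyme, fell to 20.7 and 22 CPM from 43.4 and 44.1 CPM (log2 fold change -1.04, SE 0.094, adjusted p = 1.15e-22). The other falls were small: FNTB, the farnesyltransferase beta subunit (-0.46), the thioesterases LYPLA1 (-0.29) and LYPLA2 (-0.20), and the methyltransferase ICMT (-0.15). ABHD17C was the 1 call left with the DESeq2 Wald test, and 3 calls were left with upper quartile scaling and with library size alone. RCE1, a protease that trims the lipid-receiving box, did not pass (log2 fold change -0.23, SE 0.11, adjusted p = 0.0695, edgeR). Of its exon bases, 12.7% overlap C11orf80. In the list of RAS turnover and the SHOC2 complex, in which MRAS acts, 1 of 6 tested genes passed, the phosphatase subunit PPP1CB (-0.39, SE 0.065, adjusted p = 3.86e-08, edgeR). That share was 16.7%, against 53.5% of all tested genes. LZTR1, an adaptor for RAS degradation, was also called, as higher, with upper quartile scaling, and LZTR1 and PPP1CC were with library size alone.

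Of 18 effectors and kinases downstream of RAS, 16 were tested, 7 rose and 7 fell, with a median of -0.05. The share past the threshold was 87.5%, against 53.5% of all tested genes. AFDN, which encodes afadin, a RAS-binding scaffold of adherens junctions, fell to 84.3 and 100.4 CPM from 223 and 229 CPM (log2 fold change -1.29, SE 0.061, adjusted p = 1.09e-53). RGL1, an exchange factor for RAL, rose to 14.6 and 14.1 CPM from 1.81 and 1.9 CPM (2.94, SE 0.25, adjusted p = 9.56e-34). TIAM1, an exchange factor for RAC, fell to 39.8 and 38.4 CPM from 68.8 and 72.5 CPM (-0.85, SE 0.078). MAP2K1, which encodes MEK1, fell to 79.2 and 78.7 CPM from 133 and 129 CPM (-0.73, SE 0.065). MAP2K2, which encodes the paralogous kinase MEK2 and is named here after its values were seen, rose by 0.42 (SE 0.066, adjusted p = 5.86e-09).

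Of 30 other RAS-family GTPases 15 were tested, 7 fell and 1 rose (53.3% past the threshold, near the 53.5% of all tested genes). With upper quartile scaling 6 fell and 3 rose, and with library size alone 4 fell and 3 rose, the additional higher genes being RIT1 and NKIRAS2 under both scalings. RALB fell to 82.9 and 84 CPM from 132 and 130.1 CPM (log2 fold change -0.65, SE 0.064, adjusted p = 1.97e-19) and RALA to 38.6 and 45.1 CPM from 63.2 and 66.2 CPM (-0.63, SE 0.078); both encode RAL GTPases of vesicle traffic downstream of RAS. RAP2B fell to 32.1 and 34.4 CPM from 61.9 and 60.2 CPM (-0.88, SE 0.081). RASL10B, which rose under these scalings too, went from 2 and 4 counts in the controls to 51 and 40 counts (3.77, SE 0.62).

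**Figure D5:**
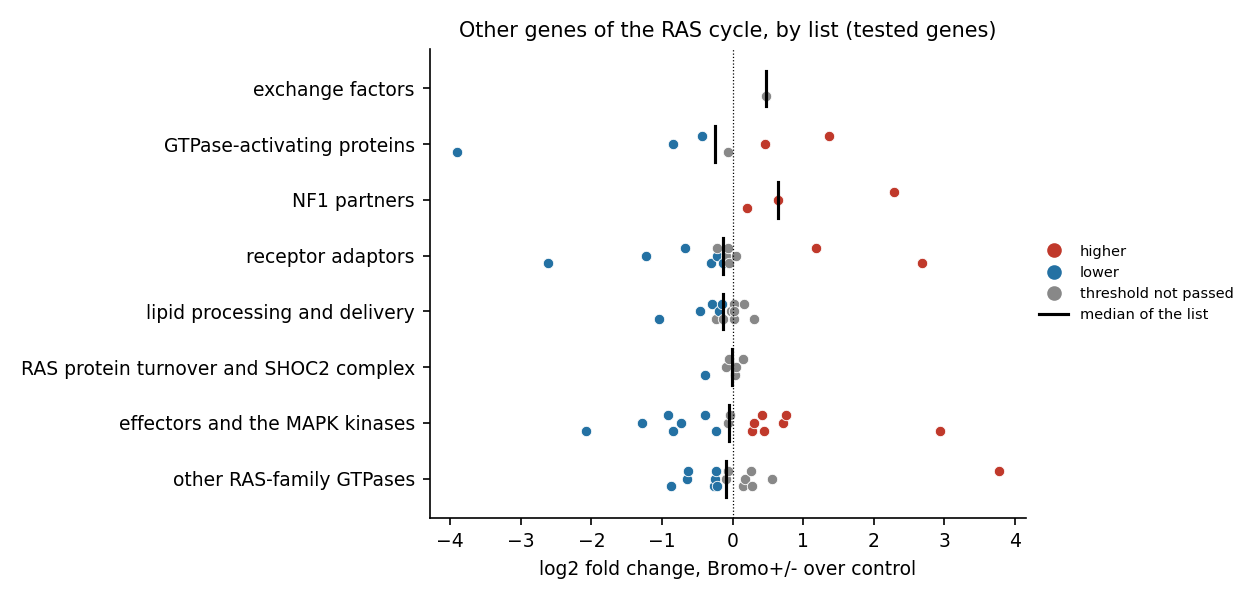
Log2 fold change of the libraries labelled Bromo+/- over control for each tested gene (points) of 8 lists of other genes of the RAS cycle, coloured by whether it rose, fell or did not pass an adjusted p of 0.05, with a black line at the median of each list. The 3 NF1 partners (the SPRED genes) lie above 0, no gene of the lipid processing list rose, and the effector list holds 7 genes that rose and 7 that fell. Over all tested genes 26.4% rose and 27.1% fell.

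The genes whose profile over the 4 libraries lay nearest to that of HRAS, by Euclidean distance of centred log2 CPM among 10741 genes whose average log2 CPM reached 2, were SERPINH1 (distance 0.017), MEN1 (0.028) and MAN1B1 (0.03). SERPINH1, a collagen chaperone, stood at 279.8 and 261 CPM against 188 and 183 CPM. MEN1 stood at 76.2 and 70.2 against 52.1 and 50.7 CPM, and MAN1B1 at 105 and 100.2 against 72 and 68.6 CPM. With 4 libraries in 2 groups, a near profile means a like difference between the groups and little more.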

How the data were processed

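RNA of 4 MCF10AT libraries was sequenced from a stranded poly(A) kit, per the labels' protocols. In 1 table the authors deposited raw counts of reads for each Ensembl gene, beside exon coordinates and exon length. The submitters' processing notes name STAR without a version, featureCounts 1.5.2 and the build GRCh38. Annotation release, strand setting and the handling of multi-mapping reads: not given in the sources used here. Columns were matched by name, those starting with WT to the non-target control because the others abbreviate Bromo. All 132 list entries, members and markers included, matched 1 row each.

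Counts were analysed with edgeR 4.0.16 in R 4.3.3 (filterByExpr, TMM factors of 0.968 to 1.03, robust quasi-likelihood test, Benjamini-Hochberg adjustment over 13179 genes, adjusted p of 0.05). SEs and 95% intervals come from the fitted model, whose gene-wise spread is moderated over all genes. Each library was counted as 1 replicate. Replicates differed by more than sampling noise (chi-square per degree of freedom 2.58 and 1.61), which does not show that they came from separate cultures. A count of 3 is worth 0.251 to 0.277 CPM at these depths (10835237 to 11975396 counts). On simulated data (12915 genes), the test called 55 of 67 genes with a log2 change of 0.5, 63 of 67 with a change of 1, 66 of 66 with a change of 2, and 10 of the 12715 left unchanged. The changed genes there excluded those with low counts, and the spread followed the fitted trend with no scatter between genes. Far fewer genes differed than in the real libraries, so these rates do not carry over to low-count genes or to the real share of calls. Coding sequences were compared with Biopython 1.88.

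Alternatives were DESeq2 1.42.0 (size factors and Wald test), library size alone, scaling by the upper quartile, leaving the filter out, at least 10 counts in every library, the replicate number as a block, and leaving out each library. The members and lists were chosen with earlier results of these data known. Named were all 9 members, up to 4 genes per list with the smallest adjusted p among those that passed, genes behind counts of 5 or fewer, and the 3 profiles nearest to HRAS; 1 gene that the rule names is not reported here.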

Additional observations from a re-analysis of the deposited data

How the results depend on the processing

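HRAS, MRAS, RRAS, RRAS2 and RASA1 kept their direction and passed the threshold under all 11 alternatives, with log2 fold changes of 0.48 to 0.61, 2.18 to 2.32, -0.60 to -0.44, -0.79 to -0.61 and -1.13 to -0.98. NRAS, SOS1 and NF1 passed under none, with signs on both sides of 0, and SOS2 passed under 1 (without replicate 2 of the libraries labelled Bromo+/-). With the replicate number as a block, which nothing in the labels ties to a shared batch (correlation of same-numbered deviations 0.0484 across genes), 7271 genes and the same number of members, 5, passed, and the block changed no member's call. Leaving out 1 library gave 5551 to 6641 genes over all and 5 to 6 members, 4 to 10 adaptors, 2 to 7 lipid processing genes, 1 to 2 turnover genes and 0 to 1 exchange factors past the threshold (the 1 was RASGRF2, without replicate 1 of the libraries labelled Bromo+/-). The lipid processing count of 5 became 3 with upper quartile scaling, 3 with library size alone and 1 with the DESeq2 Wald test. The turnover count of 1 became 2 and 3 with those 2 scalings, and the adaptor count of 8 became 5 with the DESeq2 Wald test. Over all tested genes the count of 7055 became 7118 and 7227 with the scalings and 4884 with the Wald test. The cause of these shifts was not tested. With library size alone, mean RPKM moved beyond the replicate spread to 82.5 (HRAS), 0.332 (MRAS) and 6.37 (SOS1) in the controls and to 21 (NRAS) and 7.26 (RRAS2) in the libraries labelled Bromo+/-. Of 44 other RAS-cycle genes past the threshold, 27 passed under every alternative that tested them and none changed sign. The same share was not computed for all 7055 genes past the threshold, so whether 27 of 44 is usual is not known. Depth limits MRAS, with 48 control counts, and the exchange factors other than SOS1 and SOS2.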
